A study of Mus musculus with 4 samples.

Results

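The genes of glycolysis and of the response to low oxygen were followed in mouse embryonic stem cells with and without a heterozygous G784E substitution in Smarca4. Its protein is the motor subunit of BAF, a complex that moves nucleosomes, and the study's title calls the substitution dominant-negative. The group holds 36 genes, listed by name from textbook knowledge of both pathways, out of 24428 genes in the count tables. By role they are 3 subunits of the hypoxia-inducible factor (HIF), 4 genes of oxygen sensing, 2 glucose transporters, 15 glycolytic enzymes, 4 genes that regulate glycolysis or pass on its products, and 8 further HIF targets outside glycolysis. All 36 were in the tables, and 34 passed the filter on low counts. Eno1 and Adm did not.

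RNA-seq was performed on 4 libraries of 129SvEv stem cells at passage 15 to 20, grown untreated in 15% serum with LIF. Every cell carried wild-type Smarca4 fused to GFP. The second copy was fused to the V5 tag and was G784E in 2 libraries and wild-type (WT) in the other 2, so that the controls carry both tags too. The labels do not say whether libraries of a group came from separate cultures or clones. A p-value here weighs a difference just against how far libraries of a group lie apart, with each gene's spread drawn towards that of all tested genes. Technical causes may be enough for that spread. Gene counts ran from 6226145 to 10083442 per library, and 3 counts stood for 0.305 to 0.491 CPM (a gene's counts relative to all gene counts of the library, TMM-scaled). Smarca4, whose tagged and changed copies the counts do not separate, stood at 3868 and 3580 CPM in G784E and at 2423 and 2553 CPM in WT. All 10 stem cell markers, Pou5f1, Sox2 and Nanog among them, were measured, with a summed level of 3217 and 3237 CPM in G784E and 2609 and 2942 CPM in WT. Markers of another cell type differed between the groups. The 10 markers of primitive endoderm summed to 3405 and 3741 CPM in WT and to 308 and 322 CPM in G784E, and all 10 were called lower. In bulk RNA, fewer cells of a type and less RNA per cell cannot be told apart.

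Glycolysis splits glucose into pyruvate in the cytosol, and cells that favour it turn pyruvate into lactate and export it. HIF is a pair of an oxygen-regulated alpha subunit and the constant partner ARNT. With oxygen at hand, prolyl hydroxylases mark the alpha subunit, the VHL ubiquitin ligase binds it, and it is degraded. Without oxygen it binds the hypoxia response element, whose core reads ACGTG or GCGTG, and switches on genes of glycolysis, of blood vessel growth and of mitochondrial turnover. Mouse embryonic stem cells are known for a high rate of glycolysis even with oxygen present.

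Promoter sequence was available from RefSeq (build GRCm38.p6) for 32 of the 36 genes, in 47 windows of the 250 bases before a transcription start, since 11 genes have more than 1 start. The count tables were made on build mm9, so the coordinates below belong to GRCm38.p6 alone. On either strand, ACGTG was found in 46.8% of these windows and in 16.6% of all 32851 windows, and GCGTG in 53.2% against 28.2%. At least 1 of them stood in 78.7% of these windows and in 38.6% of all. Counted by gene, 28 had a match in a window, among them 12 of 15 glycolytic enzymes and 6 of 6 further HIF targets. A gene with more than 1 window has more places for a match, and some windows of the same gene overlap. The windows of the group were richer in G and C (median 60.4% against 52.4% of bases). The part of base composition in the motif counts was not tested. CACGTG, which holds ACGTG on both strands and is also the E-box read by MYC and other factors, stood in 10.6% of these windows and in 6.02% of all. A match is a run of letters and not a measured binding site.

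Shown here are the windows of Egln3 and Pfkp, which had the smallest p-values of the group, and of Ldha and Slc2a1, the glycolytic enzyme and the transporter gene with much RNA and little difference between the groups. The choice was made with their values known. Capitals mark ACGTG or GCGTG on either strand. Egln3 (chr12:54203875-54204124, minus strand) has 1 match, 229 bases before the start. Pfkp (chr13:6648772-6649021, minus strand) has 3, all GCGTG on the gene's own strand, 136, 68 and 23 bases before it. The window of Ldha that held more matches (chr7:46845554-46845803, plus strand) has 5, of which 4 lie in 2 copies of CACGTG. Slc2a1 (chr4:119108495-119108744, plus strand) has 2, beginning 61 and 36 bases before the start.
Egln3: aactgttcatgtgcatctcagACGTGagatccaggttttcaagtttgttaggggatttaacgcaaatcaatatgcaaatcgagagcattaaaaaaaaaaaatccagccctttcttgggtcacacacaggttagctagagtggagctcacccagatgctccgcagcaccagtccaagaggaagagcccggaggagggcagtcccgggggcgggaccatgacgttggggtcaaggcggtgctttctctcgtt
Pfkp: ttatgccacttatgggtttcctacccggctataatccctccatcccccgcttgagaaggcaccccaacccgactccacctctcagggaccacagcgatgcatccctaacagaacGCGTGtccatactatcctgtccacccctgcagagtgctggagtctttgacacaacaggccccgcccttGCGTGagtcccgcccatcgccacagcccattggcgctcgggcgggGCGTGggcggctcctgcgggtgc
Ldha: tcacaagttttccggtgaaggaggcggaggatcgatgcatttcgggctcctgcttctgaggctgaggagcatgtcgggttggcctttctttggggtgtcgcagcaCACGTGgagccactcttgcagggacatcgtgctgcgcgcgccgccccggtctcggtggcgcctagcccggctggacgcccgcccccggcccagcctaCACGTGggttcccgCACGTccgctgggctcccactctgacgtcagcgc
Slc2a1: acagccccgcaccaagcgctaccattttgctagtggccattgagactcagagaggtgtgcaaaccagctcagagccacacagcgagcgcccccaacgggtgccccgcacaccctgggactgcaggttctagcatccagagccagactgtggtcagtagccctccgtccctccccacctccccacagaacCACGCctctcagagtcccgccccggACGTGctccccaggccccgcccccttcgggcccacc

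No gene of the group was called higher or lower in G784E. In edgeR's quasi-likelihood test with Benjamini-Hochberg adjustment over 15763 genes, 0 of the 34 tested genes passed in either direction, while 1.89% of all tested genes were called lower and 0.672% higher. At an unadjusted p under 0.05 there were 6 of the 34, all lower in G784E: Egln3, Pfkp, Vegfa, Pfkl, Hk1 and Aldoc. Of all tested genes, 11.6% had an unadjusted edgeR p under 0.05, and 6.48% had one and were lower. At the adjusted threshold, DESeq2 and edgeR with RLE scaling or without a filter called 0 too. Limma-voom, upper-quartile scaling and a stricter filter each called 1, Pfkp, while 2.31%, 1.85% and 2.08% of all genes were called lower. With the replicate number as a block, 5 were called lower (14.7%, against 4.17% of all genes): Egln3, Slc2a3, Pfkl, Pfkp and Vegfa. There were too few pairs, 2, to take the numbers as pairs. With 1 library left out, log2 fold changes of G784E over WT ran from -1.22 to -0.66 for Egln3, -0.86 to -0.56 for Pfkp and -1.38 to -0.51 for Vegfa. The levels leaned one way below the threshold. Both G784E libraries lay below both WT libraries for 16 of the 34 genes (47.1%, against 19.4% of all tested genes), and above them for 3 (8.82%, against 19.4%). The median log2 fold change, G784E over WT, was -0.28 over the 34 genes and -0.0016 over all genes. The group was listed by function, but with earlier results of these data known, so that these shares and the median are a description and no independent evidence of a direction. No test of the list as a whole was made.

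**Figure D1:**
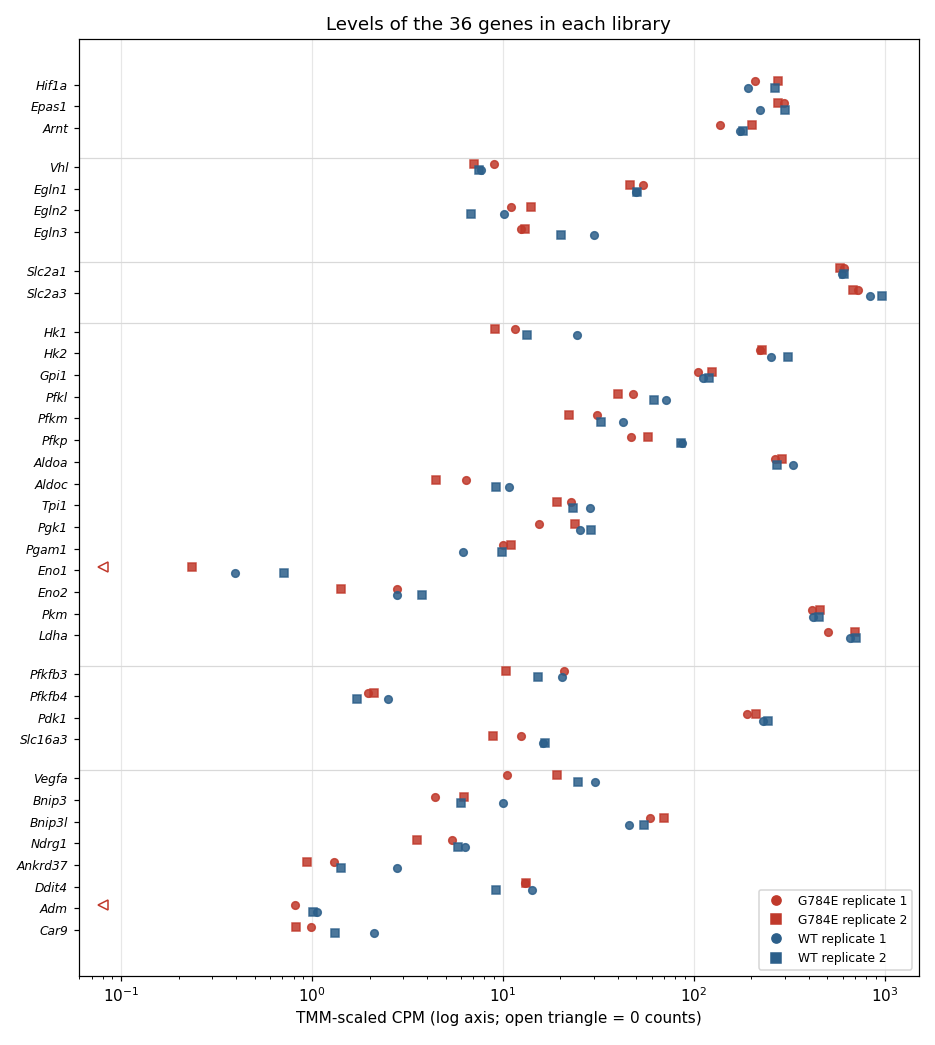
Level of each of the 36 genes in each library, in TMM-scaled CPM on a log axis, ordered by role from HIF subunits (top) to HIF targets outside glycolysis (bottom). Red marks are G784E and blue marks WT libraries, circles replicate 1 and squares replicate 2, and open triangles stand for 0 counts; Slc2a3, Ldha and Slc2a1 lie furthest to the right and Eno1, Adm and Car9 furthest to the left.

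The HIF subunits themselves differed little between the groups. Epas1, which encodes the alpha subunit HIF-2 alpha, had 295 and 274 CPM in the G784E libraries and 222 and 300.3 CPM in the WT libraries. The groups overlapped, with the single lowest and the single highest library both WT (log2 fold change 0.12, SE 0.21; edgeR, adjusted p = 0.968). Hif1a, for the alpha subunit of the first HIF described, stood at 209 and 277 CPM in G784E and at 193 and 267 CPM in WT. In both groups replicate 2 was the higher of the pair (0.08, SE 0.21; adjusted p = 0.996 in edgeR). Arnt, the partner of both, had 136 and 201 CPM in G784E and 175 and 181 CPM in WT (-0.08, SE 0.21; edgeR, adjusted p = 0.996). Per kilobase of exon the 3 genes were close to each other, at 36.9 (Arnt), 42.2 (Hif1a) and 47.3 (Epas1) CPM per kb in WT, and neighbours in that order did not differ beyond the spread of the WT libraries.

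Of the oxygen-sensing genes, Egln3 had the largest difference. It encodes a HIF prolyl hydroxylase and is itself a HIF target. Its level was 12.4 and 13.1 CPM in the G784E pair and 29.8 and 20.2 CPM in the WT libraries. The G784E libraries were nearly equal and both below WT, 1.95-fold lower on the fitted scale, without passing (log2 fold change -0.97, SE 0.28; edgeR, adjusted p = 0.0691). Egln1, the hydroxylase held to set HIF levels in most cells and also a HIF target, had 54.0 and 46.4 CPM in G784E and 49.7 and 50.3 CPM in WT. Here the WT libraries fell between the G784E libraries (0.0050, SE 0.21; adjusted p = 1 in edgeR). Egln2, the family member that HIF does not induce, leaned upwards, with 11.0 and 14.0 CPM in G784E and 10.2 and 6.80 CPM in WT, a slight gap between the groups (0.57, SE 0.35; edgeR, adjusted p = 0.62). The ubiquitin ligase gene Vhl stood at 8.03 ± 1.37 CPM in G784E and 7.59 ± 0.103 CPM in WT (mean ± SD, n = 2 each), on 55 to 74 counts per library.

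The glucose transporter genes were among the most abundant of the group. Slc2a3 (GLUT3, a high-affinity transporter of neurons and early embryos) had 727 and 678 CPM in the G784E libraries and 839 and 965 CPM in the WT libraries. The groups did not overlap, at 1.28-fold lower in G784E, a log2 fold change of -0.36 (SE 0.19; edgeR, adjusted p = 0.519). Slc2a1 (GLUT1, the widely expressed transporter) had 611 and 585 CPM in G784E and 595 and 610.5 CPM in WT, with overlapping groups (-0.01, SE 0.19; adjusted p = 1 in edgeR). The summed level of both was 1338 and 1263 CPM in G784E and 1435 and 1575 CPM in WT.

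Among the 15 glycolytic enzymes, 14 were tested, 12 had a log2 fold change below 0, and none passed. In 8 of the 14 (57.1%) the G784E libraries were both below WT, and in 1, the mutase gene Pgam1, both above it, beside 19.4% of all tested genes in each direction. The median log2 fold change was -0.39, with -0.35 between the first replicates alone and -0.36 between the second. The summed level of the enzymes was 1703 and 1988 CPM in G784E and 2070 and 2125 CPM in WT.

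All 3 genes of phosphofructokinase, the main control point of the pathway, had non-overlapping groups. Pfkp, the platelet form, had 46.8 and 57.7 CPM with G784E, against 87.0 and 85.6 CPM in WT. It was 1.65-fold lower in G784E, a log2 fold change of -0.72 (SE 0.21; edgeR, adjusted p = 0.0695). Pfkl, the liver form, had 47.9 and 39.9 CPM in G784E and 71.3 and 61.7 CPM in WT. That is 1.52-fold lower, again with both G784E libraries under both WT libraries (-0.60, SE 0.21; adjusted p = 0.188 in edgeR). Pfkm, the muscle form, had 31.1 and 22.1 CPM in G784E and 42.4 and 32.7 CPM in WT, where the lower WT library was close to the higher G784E library (-0.50, SE 0.25; edgeR, adjusted p = 0.444). Together the 3 genes summed to 126 and 119.8 CPM in G784E and to 201 and 180.0 CPM in WT. Per kilobase of exon in WT the order was Pfkp (20.1 CPM per kb), Pfkl (17.8) and Pfkm (12.5). In G784E the means were 12.2 for Pfkp, 11.8 for Pfkl and 8.88 for Pfkm. There Pfkl was above Pfkp per kilobase in replicate 1 and below it in replicate 2.

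Hexokinase, which traps glucose in the cell, was represented by a major and a minor gene. Hk2, a HIF target and the main form here, had 221 and 228 CPM in G784E and 255 and 309 CPM in WT. The groups were apart by less than the distance between the WT libraries (log2 fold change -0.33, SE 0.20; edgeR, adjusted p = 0.606). Hk1, the form of brain and red cells, had 11.6 and 9.07 CPM in G784E and 24.4 and 13.4 CPM in WT. Its fitted level was 1.83-fold lower, with WT replicate 1 well above the other 3 libraries (-0.87, SE 0.32; edgeR, adjusted p = 0.215). Per kilobase Hk2 stood at 50.2 and Hk1 at 3.90 CPM per kb in WT.

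Aldolase, which cleaves the phosphorylated sugar, also has a major and a minor gene here. Aldoc, the brain form, had 6.38 and 4.48 CPM in the G784E libraries and 10.7 and 9.24 CPM in the WT libraries, from 38 to 91 counts. Both G784E libraries were below WT, and the fold change was the largest in size among the enzymes (log2 fold change -0.88, SE 0.41; edgeR, adjusted p = 0.399). Aldoa, the main form, had 265 and 289.5 CPM in G784E and 331 and 274 CPM in WT, overlapping (-0.12, SE 0.20; edgeR, adjusted p = 0.965). In WT the per-length levels were 118 CPM per kb for Aldoa and 3.35 for Aldoc.

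**Figure D2:**
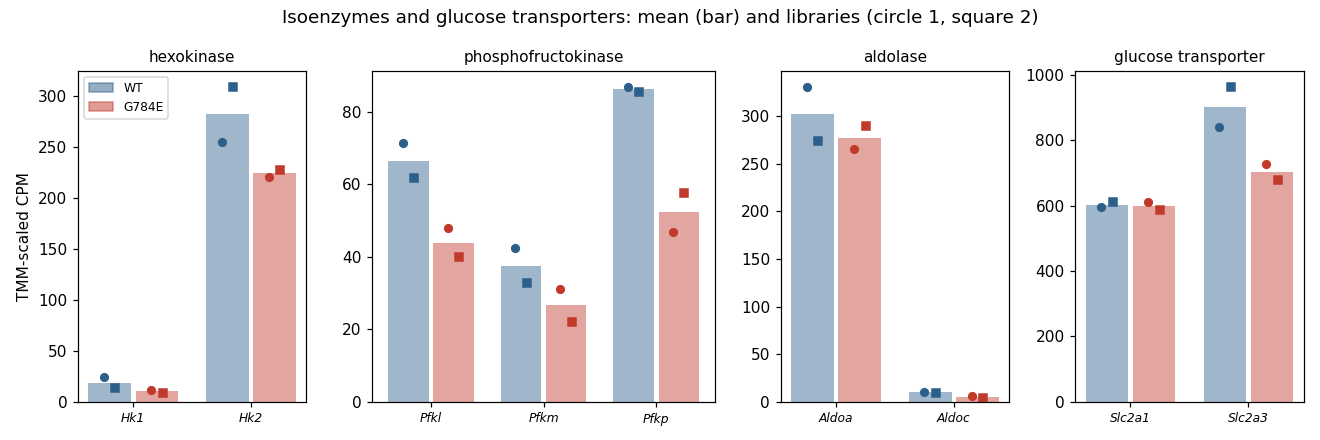
Levels of hexokinase, phosphofructokinase, aldolase and glucose transporter genes in TMM-scaled CPM, with bars for the mean of 2 libraries, circles for replicate 1 and squares for replicate 2, WT in blue and G784E in red. The groups lie apart for the 3 phosphofructokinase genes, both hexokinase genes, Aldoc and Slc2a3, and overlap for Aldoa and Slc2a1; none of these differences passed the test.

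Ldha, at the end of the pathway, turns pyruvate into lactate. It had the most counts of the 15 enzymes, with 503 and 699 CPM in G784E, against 653 and 702 CPM in WT. The lowest library was G784E replicate 1, and the other 3 were close together (log2 fold change -0.17, SE 0.21; edgeR, adjusted p = 0.914). Pkm, pyruvate kinase, had 413 and 459 CPM in G784E and 420.1 and 451 CPM in WT, with WT inside the G784E range (0.0026, SE 0.20; edgeR, adjusted p = 1). The isomerase gene Gpi1, from the top of the pathway, was as close, at 105 and 124 CPM in G784E and 111 and 119.6 CPM in WT. Per kilobase in WT, Ldha stood at 358 CPM per kb, above Aldoa (118) and Hk2 (50.2).

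For several enzymes of the middle and end of the pathway the counts were low for genes that every cell uses. Tpi1 had 19.2 to 22.7 CPM in G784E and 23.2 to 28.7 CPM in WT, Pgk1 15.4 and 23.8 CPM in G784E and 25.2 and 28.7 CPM in WT, and Pgam1 9.98 and 11.0 CPM in G784E and 6.21 and 9.85 CPM in WT. The enolase gene Eno1 had 0 and 2 counts in G784E and 3 and 7 counts in WT. Gapdh, which is not one of the 36 genes, stood at 10.04 to 13.6 CPM. Most of these genes have close copies elsewhere in the genome, and reads with no unique place, 55.4% to 61.8% of each table, were left out of the gene counts. Of all distinct stretches of 50 bases in the GENCODE M21 transcripts of a gene, those also found in transcripts of another gene made up 53.9% for Pgk1, 47.2% for Bnip3, 36.2% for Pgam1, 26.0% for Eno1, 25.8% for Pkm and 25.1% for Gapdh. They made up 0% for Hk2, Aldoc, Egln3, Pdk1 and Slc16a3, and 4.18% for Tpi1. Bnip3l, Ankrd37, Gpi1 and Ldha, among others, lay between, at 20.8%, 17%, 15.8% and 9.26%. For genes with shared stretches a level is therefore that of the uniquely placed reads. Where such genes are ranked against others, the order is one of counts alone. The share of reads each gene lost was not tested. Eno1b, a near-identical copy of Eno1, had 25 and 18 counts in G784E and 23 and 15 counts in WT. Eno2, the neuronal enolase, had 12 to 37 counts per library and overlapping groups (log2 fold change -0.65, SE 0.88; edgeR, adjusted p = 0.941). The differences of Tpi1, Pgk1 and Pgam1 were -0.31 (SE 0.25), -0.45 (SE 0.26) and 0.38 (SE 0.37), with edgeR adjusted p of 0.789, 0.571 and 0.859.

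The genes that regulate glycolysis or pass on its products also had values below 0, and none passed. Slc16a3 (MCT4, the lactate exporter that HIF induces) had 12.4 and 8.83 CPM in the G784E libraries and 16.1 and 16.5 CPM in the WT libraries. The WT libraries were nearly equal and both above G784E, by 1.54-fold on the fitted scale (log2 fold change -0.63, SE 0.31; edgeR, adjusted p = 0.44). Pdk1, a kinase that holds pyruvate back from the TCA cycle, had 189 and 211 CPM in G784E and 231 and 244 CPM in WT. Its groups did not overlap, although the gap was small (-0.25, SE 0.20; edgeR, adjusted p = 0.775). Pfkfb3, which makes the activator of phosphofructokinase, had 20.9 and 10.4 CPM in G784E and 20.3 and 15.2 CPM in WT, a wide spread in G784E (-0.19, SE 0.31; adjusted p = 0.966 in edgeR). Pfkfb4, of the same family, lay between 1.73 and 2.51 CPM in all 4 libraries (12 to 19 counts; -0.05, SE 1.01; edgeR, adjusted p = 1).

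The 8 HIF targets outside glycolysis were mostly low, and gave a mixed picture. Vegfa, the vessel growth factor, had 10.5 and 19.1 CPM in the G784E libraries and 30.5 and 24.8 CPM in the WT libraries. Both G784E libraries were below WT, 1.85-fold in the fit, and G784E replicate 1 was well below replicate 2 (log2 fold change -0.89, SE 0.28; edgeR, adjusted p = 0.123). Bnip3l, a receptor for mitophagy, leaned the other way, with 58.7 and 70.0 CPM in G784E and 45.7 and 54.8 CPM in WT. It had the most counts of the 8, with both G784E libraries above both WT libraries (0.36, SE 0.21; adjusted p = 0.597 in edgeR). Its relative Bnip3 had 4.42 and 6.24 CPM in G784E and 10.04 and 5.99 CPM in WT, overlapping (-0.57, SE 0.46; edgeR, adjusted p = 0.783). Ddit4, an inhibitor of mTOR signalling, was at 13.1 and 13.2 CPM in G784E, between the WT libraries at 14.3 and 9.14 CPM (0.17, SE 0.32; adjusted p = 0.978 in edgeR). Ndrg1, a stress-response gene, had 30 to 57 counts per library, with 5.40 and 3.53 CPM in G784E and 6.34 and 5.79 CPM in WT (-0.45, SE 0.54; edgeR, adjusted p = 0.916).

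The remaining 3 had the fewest counts of the 8. Car9, a carbonic anhydrase often used as a marker of hypoxia, had 0.982 and 0.825 CPM in G784E and 2.11 and 1.32 CPM in WT, on 6 to 16 counts. Its log2 fold change, -0.91, was the largest in size of the 8 and had the widest error (SE 1.29; edgeR, adjusted p = 0.949). Ankrd37 had 8 counts in each G784E library and 21 and 14 counts in WT (-0.89, SE 1.19; adjusted p = 0.939 in edgeR). Adm, the vasodilator peptide adrenomedullin, had 5 and 0 counts in G784E and 8 and 10 counts in WT, and was not tested. As a measure of the lowest levels, the 90th percentile over 1125 olfactory receptor genes was 1.64 and 0.707 CPM in the G784E libraries, 1.32 CPM in WT replicate 1 and 0.406 CPM in WT replicate 2. Car9 and Ankrd37 were at or above that level in both WT libraries and in G784E replicate 2. In G784E replicate 1 both were below it, at 0.982 and 1.31 CPM. Their differences rested on few counts and did not pass.

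**Figure D3:**
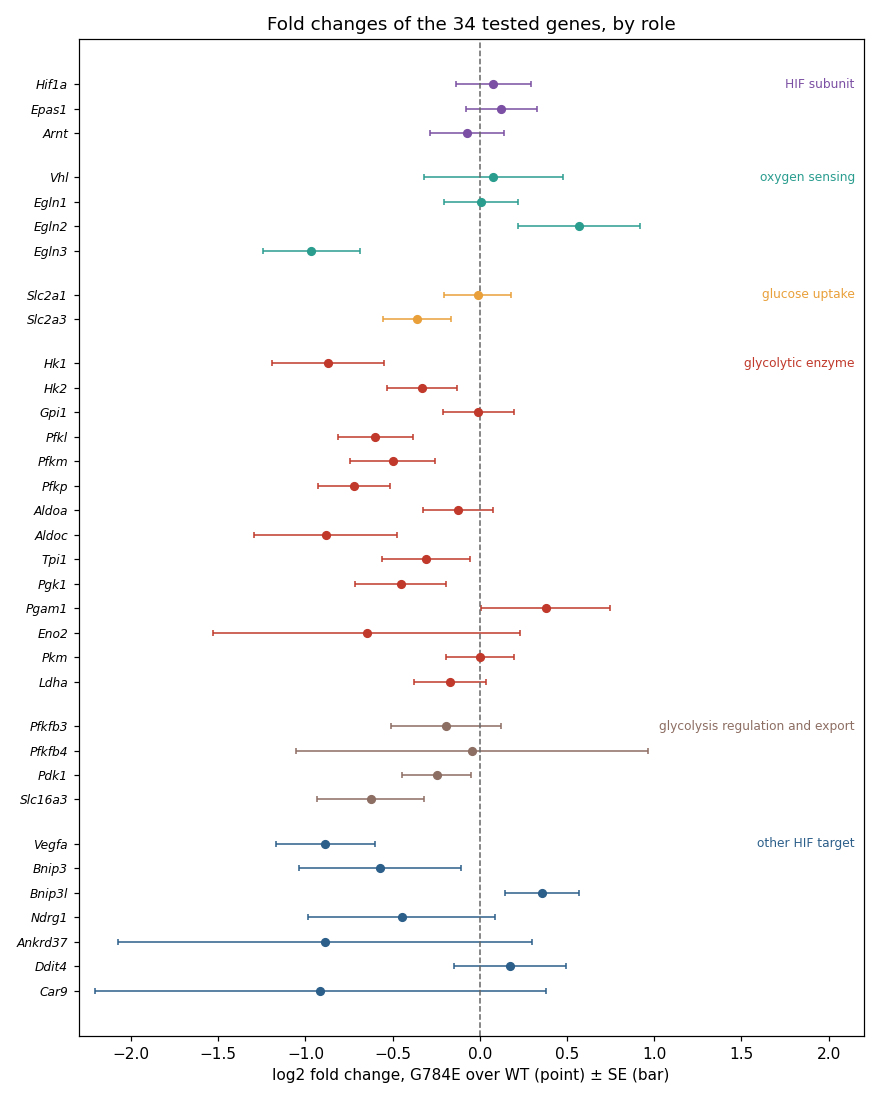
Log2 fold change of G784E over WT for the 34 tested genes, by role, with the standard error as a bar and the median over all tested genes (-0.0016) as a dashed line. HIF subunits sit at the line, most glycolytic enzymes lie to its left with Pgam1 at 0.38 to its right, and the errors of Car9, Ankrd37, Pfkfb4 and Eno2 are the widest.

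Set against each other, glycolytic enzymes and the other HIF targets could not be separated with these libraries. The median log2 fold change of the 7 tested targets was -0.57 and that of the 14 enzymes -0.39, a difference of 0.18. Taken between the first replicates alone the difference was 0.47, and between the second 0.0124. It was 0.52 without WT replicate 2 and -0.00044 without WT replicate 1, so that it rested on which WT library was kept. Each library's median of log2(CPM + 0.5) minus the WT mean, which sets the WT pair symmetric about 0, was -0.30 and -0.36 in G784E and -0.02 and 0.02 in WT for the enzymes, where the groups were apart. For the other targets it was -0.47 and -0.52 in G784E and 0.26 and -0.26 in WT, where the WT libraries were as far apart as the groups. With 2 libraries a group, an exact two-sided permutation test cannot give a p below 0.333, and none was run on these medians. The groups of the other targets did not overlap in 4 of 7 genes with G784E below WT (57.1%) and in 1 with G784E above (14.3%), beside 19.4% of all tested genes each way, and for the enzymes these were 57.1% and 7.14%. Restricted to genes at 5 CPM or more, the medians were -0.33 for 13 enzymes and -0.45 for 5 targets. Both G784E libraries lay below both WT libraries for 8 of these enzymes (61.5%) and 2 of these targets (40.0%). They lay above them for 7.69% and 20.0%. Of all genes, 23.8% at 5 to 100 CPM and 13.9% at 100 CPM or more had both G784E libraries below.

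**Figure D4:**
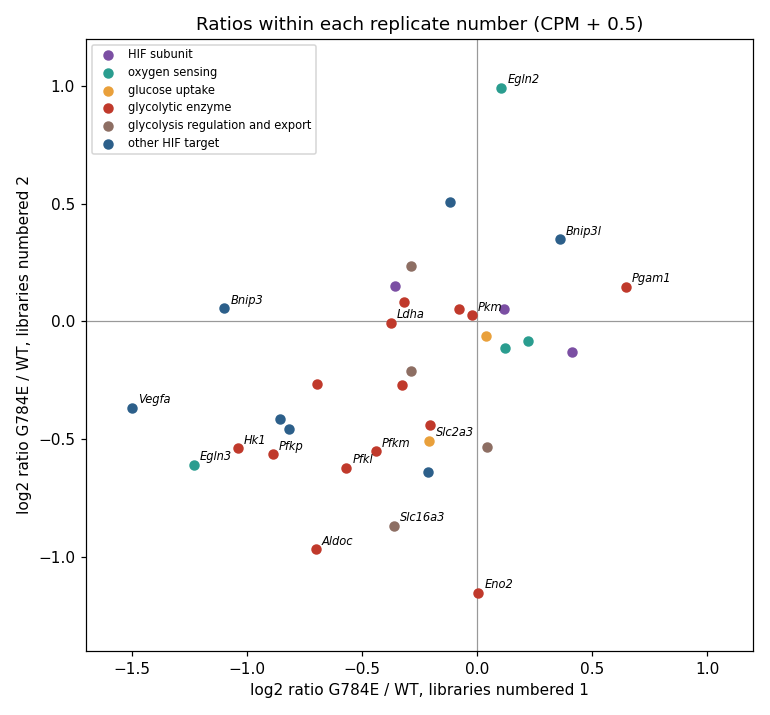
Log2 ratio of G784E over WT, from CPM + 0.5, in the libraries numbered 1 (horizontal axis) and numbered 2 (vertical axis), 1 point per tested gene and coloured by role. Points at the lower left, 17 of 34, were below 0 in both (31.9% of all tested genes were), Vegfa lies furthest to the left, and Bnip3 is at -1.10 on the horizontal axis but at 0.055 on the vertical one.

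Values below 0 in both replicate numbers were found for 17 of the 34 genes and for 31.9% of all tested genes. They included 9 of 14 glycolytic enzymes, 4 of 7 other HIF targets and 2 of 4 genes that regulate glycolysis or pass on its products. Of the rest they included 1 of 2 glucose transporters, 1 of 4 oxygen-sensing genes and 0 of 3 HIF subunits. By level, the 11 genes at 100 CPM or more had a median log2 fold change of -0.08 (range -0.36 to 0.12), beside 0.06 for all genes of that level. The 19 genes between 5 and 100 CPM had a median of -0.45 (range -0.97 to 0.57), beside -0.00065 for all genes of that level. At this middle level the G784E libraries were both below WT for 11 of 19 (57.9%) and for 23.8% of all genes there. The primitive endoderm markers had a median of -3.57 in the same comparison, and the trophoblast markers of -1.20 with 3 of 8 called lower. Fibroblast markers, with a median of -0.05 over 8 of 10 tested, had 0 called. The part of these cell types in the lower values of Pfkp, Egln3, Vegfa and the others was not tested.

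Other genes of the same pathways, on a list separate from the 36, had medians near 0. Of 18 tested further glycolysis genes 9 lay below and 9 above 0, with a median log2 fold change of 0.02 and 1 call. This was the fall of Hkdc1, a minor hexokinase-like gene, from 83 and 64 counts (8.73 ± 3.16 CPM, mean ± SD, n = 2) in WT to 15 counts and 1 count (1.29 ± 1.65 CPM, n = 2) in G784E. The fitted difference was -2.83 on the log2 scale with an SE of 0.77 (edgeR, adjusted p = 0.0483). The call was lost without G784E replicate 2 (-1.80, edgeR, adjusted p = 0.0838) and without WT replicate 1 (-2.38, adjusted p = 0.532), and also under upper-quartile scaling (-2.81, adjusted p = 0.153) and by limma-voom (-3.96, adjusted p = 0.164), with the stricter filter and without Rn45s, and the value was -6.03 without G784E replicate 1. Of 33 tested further HIF pathway and target genes the median was -0.03, with 18 below and 15 above 0 and 1 call. Hmox1, haem oxygenase, rose 1.71-fold, from 97.9 and 131.7 CPM in WT to 203 and 189.5 CPM in G784E (0.77, SE 0.21; edgeR, adjusted p = 0.0441). HIF is 1 of several regulators of Hmox1, and the call was lost without WT replicate 1 (0.57, edgeR, adjusted p = 0.734) with RLE scaling (0.77, adjusted p = 0.0679), without a filter and without Rn45s, the 45S ribosomal RNA precursor. Pyruvate entry and the TCA cycle, with 28 tested genes, had a median of -0.04 and the pentose phosphate pathway, with 7, of 0.08, and neither had a call. Both G784E libraries lay below both WT libraries for 27.8% of the further glycolysis genes and above them for 16.7%, beside 19.4% of all tested genes each way. For the further HIF genes these shares were 21.2% and 15.2%, for the TCA list 14.3% and 17.9%, and for the pentose phosphate list 14.3% and 28.6%.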

How the data were processed

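The authors deposited raw counts of reads per gene symbol, 1 table per library, for 2 G784E and 2 WT libraries of poly(dT)-captured RNA. The submitters' processing notes name build mm9, HTSeq, DESeq2, Bowtie2 2.1.0 and CASAVA 1.8.2, with no roles. The sources used here do not give the annotation, the counting mode or whether strand was used, so overlapping and antisense genes are not separated. Genes held 11.66% (G784E) and 11.29% (WT) of the tables of replicate 1, and 16.25% and 16.71% of those of replicate 2. The rows for reads outside genes or without a unique place were left out.

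Counts were tested with edgeR 4.0.16 (R 4.3.3) by the quasi-likelihood method with TMM scaling, after filterByExpr (minimum count 10, minimum total 15), over 15763 genes with group alone in the model and 2 residual degrees of freedom. P-values were adjusted by Benjamini-Hochberg over all tested genes, at a threshold of 0.05. The SE is the size of the log2 fold change over the square root of F. Counting error alone was not given as an interval, since PCR copies are not independent. Libraries of a group differed beyond counting noise (chi-square per degree of freedom 16.3 and 9.61). Ratios within a replicate number used CPM + 0.5. Exon lengths (GENCODE M21, basic set) and shared stretches of 50 bases came from GRCm38. The fit was tested on simulated counts.

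Every gene of the group is named. By rule, the gene of each role with the largest fold change and that with the highest CPM are given in full, with up to 2 risen and 2 fallen genes per other list. Of 133 further listed genes 132 were in the tables. The members and lists were chosen with earlier results of these data known. The alternatives comprised 2 other scalings (RLE, upper-quartile), no and a stricter filter (1 CPM in 2 libraries, 50 counts in total), DESeq2 1.42.0, limma-voom (limma 3.58.1), a replicate block, no Rn45s, and each library left out.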

Additional observations from a re-analysis of the deposited data

How the results depend on the processing

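Of 407 values of single genes under the alternatives, 368 kept their direction and their side of the threshold, 28 turned sign and 11 came to pass it. The number of the 36 genes called lower, 0, was 1 with upper-quartile scaling, the stricter filter or limma-voom (Pfkp each time), and ran from 0 to 3 with a library left out, the 3 being Egln3, Pfkp and Vegfa without G784E replicate 2. The number called higher was 0 under every alternative run. Same-numbered libraries deviated together (r = 0.476 across genes, which are not independent), with 2 pairs too few to take the numbers as pairs. With the replicate block 5 genes were called lower (Egln3, Slc2a3, Pfkl, Pfkp and Vegfa) and 658 of all genes in place of 298. The count of genes with both G784E libraries below WT, 16, had alternatives added after seeing the data. It was 13 to 18 under other scalings, beside 19.0% to 21.1% of all genes. At 5 CPM or more it was 14 of 30, beside 23.8% of all genes at 5 to 100 CPM and 13.9% at 100 CPM or more. With a library left out it was 19 to 22, beside 31.4% to 37.4% of all genes.

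The median of the glycolytic enzymes, -0.39, was -0.48 without a filter, -0.33 at 5 CPM or more and -0.38 to -0.29 with a library left out. The median of the other HIF targets, -0.57, ran from -0.90 to -0.34, and the difference between both from -0.00044 to 0.52, with a library left out; the cause was not tested. Egln1 was -0.036 without a filter, -7.2e-05 with the stricter filter, -0.0037 in limma-voom, -0.030 without Rn45s and -0.0032 without WT replicate 1. Pkm was -0.033 without a filter, -0.0037 with the stricter filter and -0.030 without Rn45s. Pfkfb4 was 0.042 in limma-voom. With a library left out, the values that turned, as a range per gene over all 4 such fits, were -0.14 to 0.33 for Hif1a, -0.078 to 0.36 for Epas1, -0.36 to 0.19 for Arnt, -0.084 to 0.27 for Vhl, -0.088 to 0.13 for Egln1, -0.030 to 0.040 for Slc2a1, -0.11 to 0.12 for Gpi1, -0.26 to 0.019 for Aldoa, -0.054 to 0.094 for Pkm, -0.41 to 0.063 for Ldha, -0.76 to 0.26 for Pfkfb3, -0.29 to 0.24 for Pfkfb4 and -0.12 to 0.52 for Ddit4. Few counts limit what can be read from Eno1, Adm, Car9, Ankrd37 and Pfkfb4, and the cause of their low counts was not tested.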

Other observations

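A few genes outside the 36 were picked after their values were seen, because their unadjusted p was small and both G784E libraries lay on one side of both WT libraries. None passed the test over all genes. Ldhb, the lactate dehydrogenase subunit of oxidative tissues, had 12.3 and 17.8 CPM in G784E and 31.2 and 25.6 CPM in WT (log2 fold change -0.90, SE 0.27; edgeR, adjusted p = 0.0805). Arnt2, a relative of Arnt, had 7.69 and 9.42 CPM in G784E and 17.4 and 16.2 CPM in WT (-0.97, SE 0.31; edgeR, adjusted p = 0.121). Wsb1, a ubiquitin ligase adaptor induced by hypoxia, had 53.8 and 54.2 CPM in G784E and 79.2 and 88.9 CPM in WT (-0.64, SE 0.20; edgeR, adjusted p = 0.12).

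On the other side, the HIF-induced histone demethylase gene Kdm3a had 179 and 178 CPM in G784E and 125 and 119.3 CPM in WT (0.54, SE 0.20; edgeR, adjusted p = 0.2), while Angptl4, a regulator of lipid uptake that HIF and PPAR induce, had 22.9 and 19.0 CPM in G784E and 11.1 and 13.5 CPM in WT (0.76, SE 0.28; edgeR, adjusted p = 0.208).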
